A study of Mus musculus with 18 samples.

Results

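The genes described here encode the subunits of the mitochondrial respiratory chain and of ATP synthase. They were taken by symbol: the numbered Nduf genes and Ndufab1 for complex I, the Sdh genes for complex II, the Uqcr genes and Cyc1 for complex III, the Cox4 to Cox8 genes for complex IV, the Atp5 genes for ATP synthase, and the Nd, Co, Atp and Cytb genes of mitochondrial DNA. This gave 100 of the 55450 genes in the files, after 7 symbols marked as pseudogenes were left out. Of these, 37 nuclear genes belonged to complex I, 4 to complex II, 9 to complex III, 19 to complex IV and 18 to ATP synthase, and 13 genes lay on mitochondrial DNA. The 19 include Cox6c2, which is annotated as a processed pseudogene though its symbol is not marked so. It had at most 3 counts in any tumor. RNA was sequenced from 18 spontaneous mammary gland tumors, each from a mouse of its own. The labels sort the tumors by Cbfb genotype into 14 Cbfb(het), 1 Cbfb(homo) and 3 Cbfb(wt). All 3 groups, Cbfb(wt) included, carried MMTV-Cre, a transgene that expresses Cre recombinase from the promoter of the mouse mammary tumor virus, and the allele labelled Pikca(H1047R, het), which puts H1047R into Pik3ca, an activating change in the catalytic subunit of PI3 kinase. No strain, age or treatment difference is given, and which Cbfb sequence was altered is not stated in the sources used here.

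The respiratory chain passes electrons from NADH and succinate to oxygen and pumps protons across the inner mitochondrial membrane, and ATP synthase uses that gradient to make ATP. Complex II is encoded by nuclear genes alone, while the other complexes combine nuclear subunits with proteins made inside the mitochondrion from mitochondrial DNA. Complex IV, cytochrome c oxidase, has subunits with tissue-restricted isoforms: heart and skeletal muscle use forms of their own for some subunits, and testis and lung do so for others.

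The sequences of the mitochondrial genes decide how their values can be read, because a stretch of nuclear DNA holds near-identical copies of several of them. This stretch covers 4663 bases of the minus strand of chromosome 1, chr1:24611535-24616197 in GRCm38, and is annotated in GENCODE release 21 for mouse as 7 unprocessed pseudogenes. The first 40 bases of mt-Nd3, a complex I subunit (chrM:9459-9498, plus strand), and of its copy Gm28438 (chr1:24613080-24613119, minus strand) are shown as an example of a pair that differs, with the differing base in capitals.
mt-Nd3: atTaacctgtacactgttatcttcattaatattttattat
Gm28438: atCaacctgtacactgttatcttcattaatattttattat
The substitution T3C, counted from 1 at the 5′ end of mt-Nd3, was the only difference over 345 compared bases. The first 60 bases of mt-Co2, a catalytic subunit of complex IV (chrM:7013-7072, plus strand), and of its copy Gm28661 (chr1:24615506-24615565, minus strand) are shown as a pair with no difference.
mt-Co2: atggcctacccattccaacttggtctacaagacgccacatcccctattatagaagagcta
Gm28661: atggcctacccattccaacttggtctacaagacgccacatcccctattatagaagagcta
The 681 bases that both have in common were identical, so a read from within them cannot be assigned to 1 of the genes by its sequence.

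The promoters of the nuclear members were searched for the binding motif of NRF1, a transcription factor known to act on many respiratory chain genes. A promoter is here the stretch from 250 bases before to 50 bases after the start of a gene, as listed by RefSeq on GRCm38.p6, and 67 of the 87 nuclear members had one. The motif, GCGCA and GCGC with any 1 base between them on either strand, was found in 16 of these 67 promoters, or 23.9%, against 4.78% of all 27025 promoters of the same length. Those promoters were not matched to the members in base composition or expression. Whether the motif is related to the levels in these tumors was not tested. It was in 7 of 33 promoters of complex I, 2 of 3 of complex II, 1 of 5 of complex III, 1 of 13 of complex IV and 5 of 13 of ATP synthase. Windows of 50 bases upstream of the start are shown for members of 4 complexes, each on the strand of its gene, with the motif in capitals.
Ndufa11: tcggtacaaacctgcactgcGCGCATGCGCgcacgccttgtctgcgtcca
Sdhd: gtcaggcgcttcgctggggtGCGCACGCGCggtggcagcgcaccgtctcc
Cox6a1: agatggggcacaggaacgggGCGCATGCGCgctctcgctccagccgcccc
Atp5k: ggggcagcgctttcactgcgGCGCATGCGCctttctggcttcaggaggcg
They lie at chr17:56717682-56717731 (plus strand) for Ndufa11, an accessory subunit of complex I, chr9:50603899-50603948 (minus strand) for Sdhd, a membrane anchor of complex II, chr5:115349091-115349140 (minus strand) for Cox6a1, the widely expressed form of its complex IV subunit, and chr5:108434420-108434469 (minus strand) for Atp5k, a small membrane subunit of ATP synthase. Of the tissue-restricted isoforms of complex IV, 4 had a promoter in the table (Cox6b2, Cox7a1, Cox7b2 and Cox8b), and 0 of these held the motif. The motif ACCGGAAGT of ETS factors was in 1 member promoter, that of Ndufs3 (1.49%, against 1.1% of all promoters).

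Each tumor had between 33210207 and 40974130 rounded expected counts. Cbfb stood at 12.82 to 71.09 TPM in Cbfb(het) tumors, at 10.83 TPM in the Cbfb(homo) tumor and at 12.03 to 35.65 TPM in Cbfb(wt) tumors, so that the level of the altered gene does not separate the labels. TPM, a transcript abundance, is corrected for gene length and sums to the same total in every tumor. Cbfb(het) 10 and Cbfb(het) 14 were far more alike than any other pair (chi-square over degrees of freedom of 3.38 over 11513 genes, against at least 83.89 in other pairs). The labels give them as separate tumors, and they were counted as 2, but the files cannot tell whether they share a source. The main fold changes below are also given with the 2 averaged as 1 tumor. The epithelial marker Epcam, at 330.82 to 665.88 TPM in 13 tumors, was at 5.6 TPM in Cbfb(wt) 2, 26.35 and 27.24 TPM in Cbfb(het) 10 and 14, 75.14 TPM in Cbfb(het) 1 and 133.24 TPM in Cbfb(het) 12.

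Summed over the 87 nuclear members, the level per tumor ran from 15406.1 TPM in Cbfb(het) 10 to 26122.7 TPM in Cbfb(het) 5. The median was 19632.0 TPM in Cbfb(het) tumors, the Cbfb(homo) tumor had 18576.8 TPM, and the Cbfb(wt) tumors had 19559.9, 18337.7 and 20077.0 TPM. The range of the Cbfb(het) tumors thus enclosed all other tumors. High values were found in Cbfb(het) 5, 3, 9, 7 and 8, and low values in Cbfb(het) 10, 14, 12 and 4. This held for most members at both ends: 81 of the 83 members with enough counts were above their own median TPM in Cbfb(het) 3, and 74 were in each of Cbfb(het) 5, 7 and 9. In Cbfb(het) 4, 10, 12 and 14 only 11, 18, 19 and 20 were. Of the low tumors, Cbfb(het) 10, 12 and 14 were also low in Epcam, and their summed level of the 8 fibroblast markers was 24473.4, 20055.14 and 24350.41 TPM, against a median of 1492 TPM in Cbfb(het) tumors, 3134.0 TPM in the Cbfb(homo) tumor and 356.35 to 9666.97 TPM in Cbfb(wt) tumors. In Cbfb(het) 2, 4, 6 and 8 milk protein genes took 14.1% to 22.0% of all TPM. Their part in these levels was not tested. In a piece of tumor, fewer cells of a type and less RNA per cell cannot be told apart. On the scale of TMM-normalized log2 CPM the order of many tumors changed. Members above their own median numbered 83, 79 and 55 in Cbfb(het) 8, 2 and 4 on that scale, against 52, 34 and 11 on the TPM scale, so that Cbfb(het) 4 was low on the TPM scale alone. They numbered 5, 15 and 1 in Cbfb(het) 13, 11 and 12, against 43, 46 and 19 on the TPM scale. On both scales Cbfb(het) 3, 5, 7 and 9 were high (76 to 82 in log2 CPM) and Cbfb(het) 10, 12 and 14 low (18, 1 and 17 in log2 CPM). The median member varied less than the median gene. The median SD over the 18 tumors was 0.424 log2 CPM for nuclear members, 0.524 for mitochondrial genes and 0.676 for all 20328 genes kept. Those genes were not matched to the members in expression, and enough counts in a single tumor sufficed to keep a gene. The lower SD is thus not shown to be a trait of the members.

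**Figure D1:**
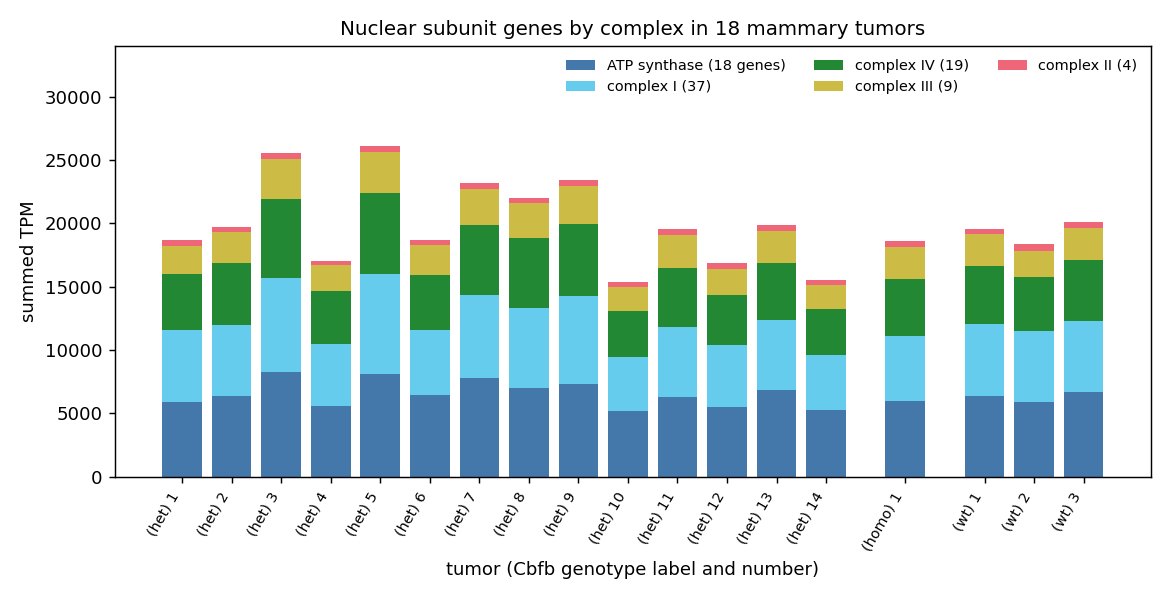
Summed TPM of the nuclear subunit genes of each complex (stacked bars, vertical axis) in each of the 18 tumors (horizontal axis: Cbfb(het) 1 to 14, Cbfb(homo) 1, Cbfb(wt) 1 to 3). The tallest bars are those of Cbfb(het) 5 and 3 (26122.7 and 25528.6 TPM) and the shortest those of Cbfb(het) 10 and 14 (15406.1 and 15556.2 TPM), while the complexes keep similar shares.

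The complexes kept their proportions while the sum changed. ATP synthase genes made up 31.0% to 34.7% of the nuclear sum in the 18 tumors, complex I 27.2% to 30.5%, complex IV 22.4% to 25.3% and complex III 11.2% to 13.8%. Complex II, with 1.72% to 3.04%, varied most in relative terms. Its sum did not follow that of the other complexes: it was highest in Cbfb(het) 12 (513.4 TPM), where complex I was at 4928.5 TPM, and lowest in Cbfb(het) 2 (368.6 TPM). Across tumors its highest sum was 1.39 times its lowest, against 1.86 times for complex I, 1.70 for complex III, 1.79 for complex IV and 1.602 for ATP synthase.

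Complex I, which takes electrons from NADH, had its most abundant member in Ndufa4 (chr6:11900292-11907497, minus strand), with 392 TPM on average over the 18 tumors. Ndufa4 was first described as a complex I protein and was later found in complex IV. It had 199.85 to 657.2 TPM in Cbfb(het) tumors (median 377), 275.37 TPM in the Cbfb(homo) tumor and 423.55, 243.27 and 402.37 TPM in Cbfb(wt) tumors. Its highest level was in Cbfb(het) 3 and its lowest in Cbfb(het) 14, and the groups overlapped. Ndufb4 (chr16:37647170-37654453, minus strand), an accessory subunit of the membrane arm, was listed lowest, with 21.3 TPM on average. Its value is a remainder, since 64.9% of the counts of Ndufb4 and of its processed pseudogene Ndufb4c, identical over 390 bases, were assigned to the pseudogene. With these counts added, Ndufb4 ran from 43.58 TPM in Cbfb(het) 1 to 90.59 TPM in Cbfb(het) 14. Ndufs5 shared counts in the same way with BC002163 (27.6% on the copy) and Ndufa12 with Gm15920 (19.9%).

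Among complex I genes that passed the filter on low counts, Ndufc2 varied most and Ndufs1 least. Ndufc2 (chr7:97400003-97407802, plus strand), a membrane arm subunit, had an SD of 0.857 log2 CPM over the 18 tumors. It stood at 69.53 to 328.31 TPM in Cbfb(het) tumors (median 192), 118.1 TPM in the Cbfb(homo) tumor and 118.42, 97.12 and 164.62 TPM in Cbfb(wt) tumors. The highest level, in Cbfb(het) 8, was 4.72 times the lowest, in Cbfb(het) 10. Ndufs1 (chr1:63143596-63176833, minus strand), the largest iron-sulfur subunit, had an SD of 0.205 log2 CPM. It stood at 46.15 to 88.84 TPM in Cbfb(het) tumors (median 59.4), 59.93 TPM in the Cbfb(homo) tumor and 66.98, 51.9 and 73.86 TPM in Cbfb(wt) tumors.

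Complex II, succinate dehydrogenase, links the citric acid cycle to the chain, and its 4 genes had similar levels. Sdhd, a membrane anchor, was the most abundant, with 121.1 to 167.61 TPM in Cbfb(het) tumors (median 139), 126.44 TPM in the Cbfb(homo) tumor and 130.47, 158.65 and 134.28 TPM in Cbfb(wt) tumors. Sdhc (chr1:171127165-171150603, minus strand), the other anchor, was the least abundant, with 50.3 to 117.56 TPM in Cbfb(het) tumors (median 74.1), 89.53 TPM in the Cbfb(homo) tumor and 88.5, 85.76 and 69.22 TPM in Cbfb(wt) tumors. By TPM, Cbfb(het) 10 was the highest of all tumors in Sdhc and the lowest in Sdhd. The low end of Sdhd was nearly tied, with 122.37 and 122.65 TPM in Cbfb(het) 2 and 14. On the log2 CPM scale the Cbfb(homo) tumor was the lowest in Sdhd. Sdhb, the iron-sulfur subunit, had the largest SD of the complex, 0.309 log2 CPM, and Sdhd the smallest, 0.244. Sdha, the flavoprotein, ran from 78.67 TPM in Cbfb(het) 8 to 141.37 TPM in Cbfb(wt) 3.

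Complex III passes electrons from ubiquinol to cytochrome c. Uqcrh, the hinge protein, was its most abundant member (539.9 TPM on average) and Uqcrc2, a core protein, its least abundant (121.7 TPM). Uqcr11, a small subunit, varied most (SD 0.579 log2 CPM), with 220.6 to 631.21 TPM in Cbfb(het) tumors (median 400), 360.1 TPM in the Cbfb(homo) tumor and 359.89, 308.68 and 385.53 TPM in Cbfb(wt) tumors. Uqcrb, which binds ubiquinone, varied least (SD 0.310). Cyc1, the cytochrome c1 that hands electrons on, stood at 83.21 to 263.37 TPM in Cbfb(het) tumors (median 181), 160.25 TPM in the Cbfb(homo) tumor and 239.13, 211.46 and 220.69 TPM in Cbfb(wt) tumors. Its lowest values were again in Cbfb(het) 10 and 14, at 83.21 and 90.4 TPM.

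The catalytic subunits of complex IV are encoded by mitochondrial DNA, and its nuclear genes encode the subunits around them. Cox4i1, the common form of subunit 4, was the most abundant, with 563.15 to 1143.04 TPM in Cbfb(het) tumors (median 785), 695.45 TPM in the Cbfb(homo) tumor and 736.6, 639.3 and 868.58 TPM in Cbfb(wt) tumors. Cox6a2, described with the isoforms below, varied most of the complex (SD 2.01 log2 CPM). Cox6c varied least (SD 0.296) and had its highest level, 830.57 TPM, in Cbfb(wt) 2, where Cox6b1 was at 432.9 TPM. Cox7a2l, which joins complexes III and IV into supercomplexes, ran from 174.89 TPM in Cbfb(het) 12 to 406.06 TPM in Cbfb(het) 5. Cox6a1, Cox7a2, Cox7b and Cox8a, the common partners of the restricted forms below, each differed by 1.63 to 2.67 times between their highest and lowest tumor.

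ATP synthase is a catalytic head on a ring turned by protons. Atp5b (chr10:128083273-128090391, plus strand), the catalytic beta subunit, was the most abundant nuclear member of all, with 949 TPM on average. It stood at 449.11 to 1371.48 TPM in Cbfb(het) tumors (median 981), 924.57 TPM in the Cbfb(homo) tumor and 894.23, 781.04 and 1133.11 TPM in Cbfb(wt) tumors. The 2 lowest tumors were Cbfb(het) 10 and 14, at 449.11 and 452.92 TPM, and no other tumor was below 781.04 TPM. Atp5d, the delta subunit of the stalk, varied most (SD 0.669 log2 CPM), with 114.06 and 140.04 TPM in the same 2 tumors and 467.61 TPM in Cbfb(het) 3. Atp5e, the epsilon subunit beside it, went the other way in these tumors, with 623.36 and 677.52 TPM in Cbfb(het) 10 and 14, against 326.31 to 659.49 TPM in all others but Cbfb(het) 5 (883.21 TPM). Atp5c1, the gamma subunit, varied least (SD 0.242). Atp5s, named for a coupling factor, was the least abundant with enough counts, at 6.84 TPM on average. A second gene ID with the symbol Atp5o had no count in any tumor.

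The ring of ATP synthase is built from the c subunit, whose mature protein is the same from Atp5g1, Atp5g2 and Atp5g3. Atp5g3 was listed highest, at 463.1 to 928.51 TPM in Cbfb(het) tumors (median 755), 599.02 TPM in the Cbfb(homo) tumor and 866.08, 525.63 and 707.97 TPM in Cbfb(wt) tumors. Atp5g1 followed with 226.3 to 398.72 TPM in Cbfb(het) tumors (median 292), 248.21 TPM in the Cbfb(homo) tumor and 238.87, 289.16 and 328.61 TPM in Cbfb(wt) tumors. Atp5g2 was listed lowest, with 84.87 to 183.14 TPM in Cbfb(het) tumors (median 117), but 71.3% of the counts of Atp5g2 and of its pseudogene Gm10175, identical over 645 bases, were on the pseudogene. With these added, Atp5g2 ran from 296.43 TPM in Cbfb(het) 10 to 658.11 TPM in Cbfb(het) 5, so its place below Atp5g1 rests on how shared reads were assigned.

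The 13 genes of mitochondrial DNA took 1.08% to 2.27% of the counts of a tumor, and with their annotated copies 2.002% to 3.64%. The 87 nuclear members took 0.536% to 1.16%. The mitochondrial share did not follow the nuclear one. With copies it was highest in Cbfb(het) 2 (3.64%) and Cbfb(het) 10 (3.50%) and lowest in Cbfb(het) 3 (2.002%). The ratio of mitochondrial counts with copies to nuclear member counts was lowest in Cbfb(het) 3 (1.72) and highest in Cbfb(het) 10 and 14 (6.54 and 5.92). It was 3.43 in the Cbfb(homo) tumor and 2.84, 3.68 and 3.69 in the Cbfb(wt) tumors. The libraries were made with a kit that selects polyadenylated RNA, so these shares describe the RNA captured that way.

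**Figure D2:**
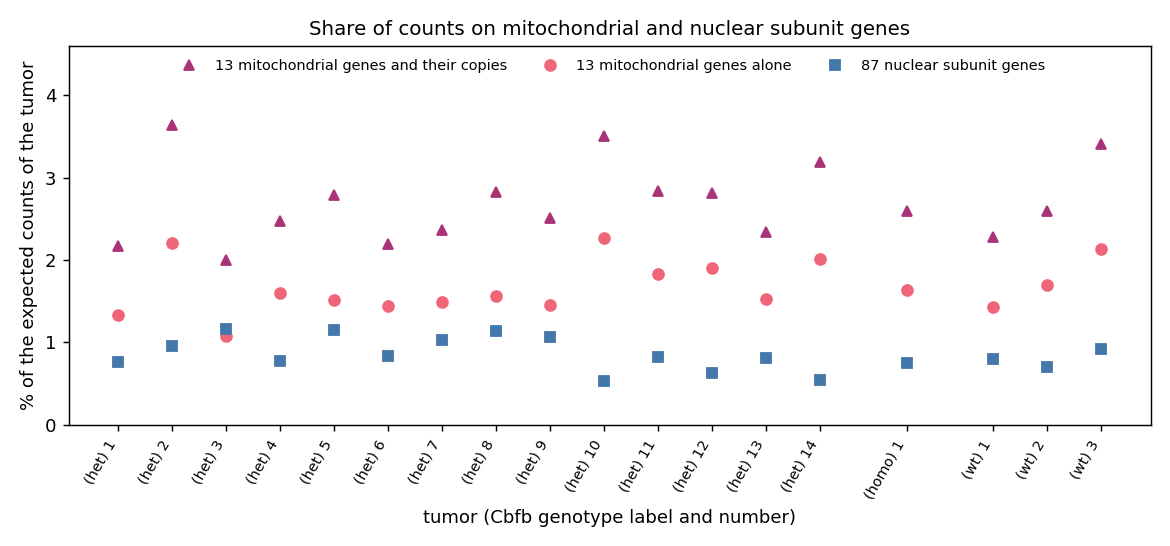
Percentage of the expected counts of a tumor (vertical axis) assigned to the 13 mitochondrial genes with their copies (triangles), to the 13 genes alone (circles) and to the 87 nuclear subunit genes (squares), for each tumor (horizontal axis: Cbfb(het), Cbfb(homo), Cbfb(wt)). The mitochondrial genes with copies sit between 2.002% and 3.64% and the nuclear genes between 0.536% and 1.16%, and their ratio is highest in Cbfb(het) 10 and 14 (6.54 and 5.92).

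Most reads of 5 mitochondrial genes were listed under the pseudogenes on chromosome 1. Over all tumors the copy held 90.6% of the counts of mt-Co2 and its copy, 90.0% for mt-Atp6, 89.7% for mt-Co3, 81.5% for mt-Nd3 and 65.8% for mt-Nd4l. It held 11.6% for mt-Co1, whose copy covers 492 bases, and 0.847% for mt-Nd4. The share varied between tumors, from 81.8% to 96.0% for mt-Atp6 and from 41.8% to 73.5% for mt-Nd4l, so the level listed for the gene alone moves with the assignment. The 7 copies together held 6935376 counts over the 18 tumors. Copies on other chromosomes held 0.0265% of the counts of gene and copy for mt-Co1, 0.0451% for mt-Co2, 0.00617% for mt-Nd2 and 0.000962% for mt-Nd5 over all tumors, at most 0.114% in any tumor. Among annotated transcripts no copy was found for mt-Nd1, mt-Nd6, mt-Cytb and mt-Atp8. DNA without an annotated transcript was not searched. This leaves out the bases between the chromosome 1 copies of mt-Co2 and mt-Atp6, the genes between which most of mt-Atp8 lies on mitochondrial DNA. The shares below include the copies.

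Among the oxidase and synthase genes of mitochondrial DNA, mt-Co1, the catalytic core of complex IV, took the largest share. With its copies it had 0.555% to 1.09% of the counts of Cbfb(het) tumors (median 0.768%), 0.732% in the Cbfb(homo) tumor and 0.664%, 0.653% and 0.999% in Cbfb(wt) tumors. mt-Co2 had 0.261% to 0.527% (median 0.355%) in Cbfb(het) tumors, 0.367% in the Cbfb(homo) tumor and 0.333%, 0.330% and 0.430% in Cbfb(wt) tumors. mt-Co3, the remaining core subunit of the oxidase, had 0.264% to 0.549% (median 0.356%) in Cbfb(het) tumors, 0.355% in the Cbfb(homo) tumor and 0.308%, 0.335% and 0.404% in Cbfb(wt) tumors. The highest tumor exceeded the lowest by a similar factor in each: 1.96 times for mt-Co1, 2.02 for mt-Co2 and 2.08 for mt-Co3. mt-Atp6, which forms the proton channel of ATP synthase, behaved alike, with 0.169% to 0.335% (median 0.234%) in Cbfb(het) tumors, 0.226% in the Cbfb(homo) tumor and 0.201%, 0.208% and 0.322% in Cbfb(wt) tumors. mt-Cytb, the cytochrome b of complex III, had 0.163% to 0.339% (median 0.247%) in Cbfb(het) tumors, 0.243% in the Cbfb(homo) tumor and 0.189%, 0.231% and 0.351% in Cbfb(wt) tumors. The groups overlapped for all 5 genes.

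Complex I has 7 subunits from mitochondrial DNA, all in its proton-pumping membrane arm. mt-Nd1 had 0.132% to 0.252% of the counts (median 0.174%) in Cbfb(het) tumors, 0.176% in the Cbfb(homo) tumor and 0.155%, 0.214% and 0.217% in Cbfb(wt) tumors. mt-Nd2 had 0.0693% to 0.132% (median 0.0956%) in Cbfb(het) tumors, 0.0984% in the Cbfb(homo) tumor and 0.0957%, 0.146% and 0.140% in Cbfb(wt) tumors. mt-Nd4 had 0.0979% to 0.245% (median 0.163%) in Cbfb(het) tumors, 0.173% in the Cbfb(homo) tumor and 0.145%, 0.203% and 0.253% in Cbfb(wt) tumors. These 3 genes differed by 1.92 to 2.58 times between the extreme tumors, and Cbfb(het) 3 was the lowest for each. mt-Nd3 had 0.0184% to 0.0406% (median 0.0261%) in Cbfb(het) tumors, 0.0240% in the Cbfb(homo) tumor and 0.0242%, 0.0308% and 0.0291% in Cbfb(wt) tumors.

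Some genes of mitochondrial DNA spread far more between tumors than the rest. mt-Nd5 had 0.0428% to 0.187% (median 0.117%) in Cbfb(het) tumors, 0.135% in the Cbfb(homo) tumor and 0.113%, 0.177% and 0.162% in Cbfb(wt) tumors, a 4.38-fold range. Its TPM was lowest in Cbfb(het) 3, 8, 5, 9 and 7 (326.81, 404.73, 409.17, 567.57 and 710.41 TPM), which were also the 5 tumors with the highest nuclear sums. Set against mt-Cytb in the same tumor, mt-Nd5 ran from 0.124 times its TPM in Cbfb(het) 5 and 0.136 in Cbfb(het) 3 to 0.389 in Cbfb(het) 12 and 0.443 in Cbfb(wt) 2. The Cbfb(homo) tumor was at 0.322 and the other Cbfb(wt) tumors at 0.346 and 0.268. mt-Nd4l, with its copy, had 0.00431% to 0.0342% (median 0.0192%) in Cbfb(het) tumors, 0.0196% in the Cbfb(homo) tumor and 0.0184%, 0.0254% and 0.0346% in Cbfb(wt) tumors. mt-Nd6, the subunit encoded on the opposite strand, had 0.000913% to 0.00587% (median 0.00167%) in Cbfb(het) tumors, 0.00191% in the Cbfb(homo) tumor and 0.00234%, 0.00231% and 0.00186% in Cbfb(wt) tumors. The kit keeps strand, but whether strand was used in counting is not given in the sources used here, so reads of mt-Nd6 and of RNA from the strand opposite it may not be separated.

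mt-Atp8, a small membrane subunit of ATP synthase, had 0.00802% to 0.0663% of the counts (median 0.0369%) in Cbfb(het) tumors, 0.0379% in the Cbfb(homo) tumor and 0.0358%, 0.0406% and 0.0685% in Cbfb(wt) tumors. The lowest share was in Cbfb(het) 5 and the highest in Cbfb(wt) 3, 8.54 times as much. mt-Atp8 and mt-Nd4l are short, and mt-Atp8 overlaps mt-Atp6 by 43 bases. RSEM gave mt-Atp8 an effective length, the number of positions a fragment can start from, of 20.4 to 36.7 bases, and mt-Nd4l one of 76.8 to 106 bases, both smallest in Cbfb(het) 5. The mean fragment length was 203.0 to 237.1 bases, with the highest value in Cbfb(het) 5 and the lowest in Cbfb(wt) 3. Its part in these shares was not tested. TPM values of these genes are divided by this small length and reached 38523.21 for mt-Atp8 in Cbfb(het) 10, so levels of mitochondrial genes are given here as shares of counts.

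The tissue-restricted isoforms of complex IV were low beside their common partners and stood out in single tumors. Cox6a2 (chr7:128205435-128206387, minus strand), the heart and skeletal muscle form of subunit 6A, was at 47.84 TPM in Cbfb(het) 5, at most 5.04 TPM in the other Cbfb(het) tumors, 2.58 TPM in the Cbfb(homo) tumor and 0.17, 1.0 and 0 TPM in Cbfb(wt) tumors. Cox8b (chr7:140898945-140900446, minus strand), the muscle form of subunit 8, was at 63.81 TPM in Cbfb(het) 5, 11.88 TPM in Cbfb(het) 11, at most 4.17 TPM in other Cbfb(het) tumors, 1.36 TPM in the Cbfb(homo) tumor and 0, 0 and 1.28 TPM in Cbfb(wt) tumors. Cox7a1 (chr7:30184144-30186078, plus strand), the muscle form of subunit 7A, was at 29.87 TPM in Cbfb(het) 5, 1.23 to 15.4 TPM in the other Cbfb(het) tumors, 4.17 TPM in the Cbfb(homo) tumor and 4.98, 4.97 and 11.17 TPM in Cbfb(wt) tumors. In Cbfb(het) 5 the muscle forms made up 7.07% of Cox6a1 and Cox6a2, 10.8% of Cox8a and Cox8b and 8.51% of Cox7a1 and Cox7a2. Markers of skeletal muscle were highest in the same tumor. All 15 genes of the muscle list were detected, and their summed level was 6591.32 TPM in Cbfb(het) 5 and 925.4, 581.89 and 227.46 TPM in Cbfb(het) 1, 11 and 3, against a median of 28.8 TPM in Cbfb(het) tumors, 255.56 TPM in the Cbfb(homo) tumor and 19.75 to 42.97 TPM in Cbfb(wt) tumors. Acta1, the actin of skeletal muscle, was at 1471.21 TPM and Ckm, the muscle creatine kinase, at 1118.84 TPM in Cbfb(het) 5. The brown fat list was also highest there (171.99 TPM), with 116.57 TPM of it from Elovl3 and 47.91 TPM from Cidea. Cidea was highest in Cbfb(het) 4 (105.94 TPM). Ucp1 was at 0.44 TPM in Cbfb(het) 5, and its highest level was 0.45 TPM, in Cbfb(het) 7. Cox7a1 did not follow the muscle sum elsewhere: it was at 7.25 and 7.45 TPM in Cbfb(het) 1 and 11, and at 10.29, 12.1 and 13.73 TPM in Cbfb(het) 2, 4 and 8, whose muscle sums were 17.08, 15.06 and 38.37 TPM. The parts of admixed muscle and of brown fat in these levels were not tested.

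Cox4i2 (chr2:152754173-152765037, plus strand), the lung form of subunit 4, followed another set of tumors. It was at 46.45 and 46.26 TPM in Cbfb(het) 10 and 14, 21.95 TPM in Cbfb(het) 9, 1.97 to 9.38 TPM in the other Cbfb(het) tumors, 26.12 TPM in the Cbfb(homo) tumor and 4.09, 3.34 and 3.72 TPM in Cbfb(wt) tumors. This was 7.62% and 7.33% of Cox4i1 and Cox4i2 in Cbfb(het) 10 and 14 and 3.62% in the Cbfb(homo) tumor, against 0.427% to 0.552% in Cbfb(wt) tumors. Ndufa4l2, a relative of Ndufa4 induced in low oxygen and no member of the set, was also highest in Cbfb(het) 10 and 14 (499.11 and 564.23 TPM), followed by the Cbfb(homo) tumor (346.05 TPM) and Cbfb(wt) 1 (242.2 TPM). It was at 200.72 TPM in Cbfb(het) 11, where Cox4i2 was at 3.19 TPM, and at 88.57 TPM in Cbfb(het) 9. A part of low oxygen in these levels was not tested. Cox4i2 is also known from pericytes, the cells that wrap small vessels. The summed level of the 7 pericyte markers was 126.43 and 134.05 TPM in Cbfb(het) 10 and 14, 48.29 TPM in Cbfb(het) 9 and 170.0 TPM in the Cbfb(homo) tumor, and the 3 Cbfb(wt) tumors had 63.21, 159.91 and 49.42 TPM. The highest sum, 291.25 TPM, was in Cbfb(het) 12, the lowest in Cox4i2, and 220.99 TPM of it came from Pdgfrb, which fibroblasts also express. The markers differed among themselves. Cspg4 was highest in Cbfb(het) 14, the Cbfb(homo) tumor and Cbfb(het) 10 (35.21, 34.34 and 31.34 TPM), against 5.23 TPM in Cbfb(het) 12, and Rgs5 was highest in the Cbfb(homo) tumor (55.89 TPM), followed by Cbfb(het) 12 (33.63 TPM). Higd1b was highest in Cbfb(het) 14 (6.76 TPM) and Abcc9 in Cbfb(het) 10 (5.84 TPM). In Cbfb(wt) 2, low in Cox4i2, these 2 were at 5.71 and 5.28 TPM, and Kcnj8 was highest there (8.95 TPM). Notch3 was highest in Cbfb(wt) 1 (37.89 TPM), against 9.54 and 10.29 TPM in Cbfb(het) 10 and 14. The part of pericytes in the level of Cox4i2 was not tested.

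The isoforms known from testis were low or absent. Cox6b2 was at 1.2 to 9.11 TPM in Cbfb(het) tumors (median 3.63), 4.16 TPM in the Cbfb(homo) tumor and 2.34, 2.94 and 2.12 TPM in Cbfb(wt) tumors, where its partner Cox6b1 had 432.9 to 769.62 TPM. Cox7b2 had 0 counts in all 18 tumors and Cox8c at most 1. Of 6 testis markers, 4 had no count in any tumor, and the summed level did not exceed 0.35 TPM.

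**Figure D3:**
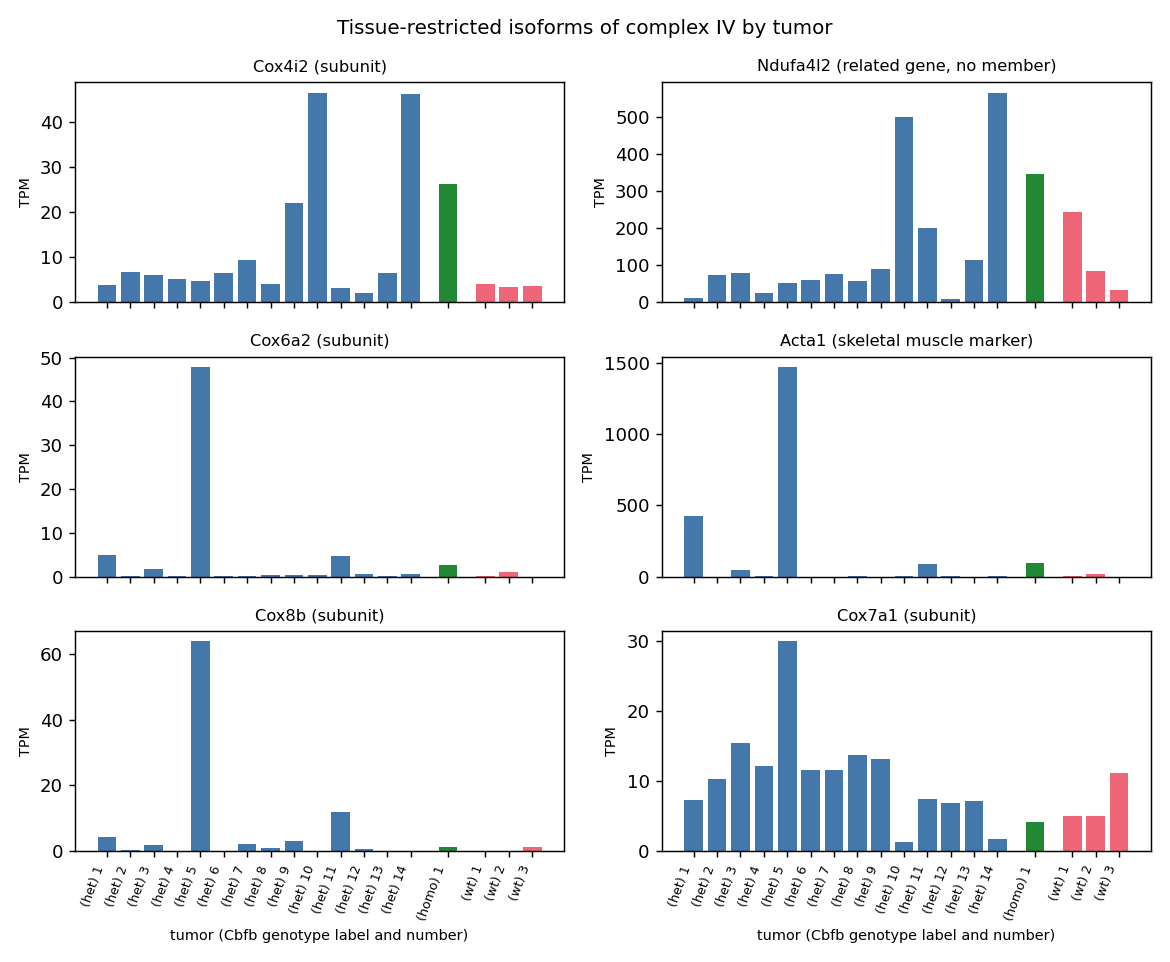
TPM (vertical axes, separate scales) of Cox4i2, Cox6a2, Cox8b and Cox7a1, of Ndufa4l2 and of the muscle marker Acta1 in each tumor (horizontal axis), with Cbfb(het) tumors in blue, the Cbfb(homo) tumor in green and Cbfb(wt) tumors in red. Cox6a2, Cox8b, Cox7a1 and Acta1 peak in Cbfb(het) 5, while Cox4i2 and Ndufa4l2 are highest in Cbfb(het) 10 and 14.

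The Cbfb(het) tumors were compared with the Cbfb(wt) tumors, which the genotype labels imply as a comparison. No subunit gene passed the test: 0 of the 96 members that passed the filter on low counts were called higher or lower. The background was the same, with 0 of 18475 genes called (0%) by edgeR's quasi-likelihood F-test at a Benjamini-Hochberg adjusted p of 0.05, and 0 called by DESeq2. At an unadjusted p under 0.05 by edgeR there were 3 members higher and 0 lower, beside 1.46% of all genes higher and 1.91% lower. Of the 3, 1 was nuclear and 2 were mitochondrial. With the copies added to the members, 0 mitochondrial genes were under 0.05. By DESeq2, 932 of 18475 genes had an unadjusted p under 0.05, 595 higher and 337 lower. Of the 96 members, 4 were higher (2 nuclear and 2 mitochondrial) and 0 lower by the same test. In 0 members did all Cbfb(het) tumors lie above, or all below, all Cbfb(wt) tumors, which held for 0.0379% and 0.124% of all genes. The 4 members that did not pass were Cox7b2, Cox8c, Cox6c2 and the second Atp5o.

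The fitted log2 fold changes of nuclear members, Cbfb(het) over Cbfb(wt), were mostly small and positive. Of 83, 78 were above 0, against 53.2% of all genes, and their median was 0.22, against 0.03 for all genes. By complex the median was 0.21 for complex I (35 of 37 above 0), 0.13 for complex II (4 of 4), 0.24 for complex III (8 of 9), 0.36 for complex IV (16 of 16) and 0.17 for ATP synthase (15 of 17). In complex IV, Cox8b reached 10 counts only in Cbfb(het) 1, 5, 9 and 11 (16, 271, 14 and 47). It had 0, 0 and 5 counts in Cbfb(wt) tumors, so it passed the filter through the group where it was high. Cox6a2 passed mostly through Cbfb(het) 1, 3, 5 and 11 (57, 23, 692 and 56), with 2, 12 and 0 in Cbfb(wt) tumors. The positive signs of both were thus largely set by the filter, and the numbers above 0 include them. The number above 0 differed between fits. With the epithelial markers as a covariate, 60 of 83 were above 0 and the median was 0.08, beside 0.04 for all genes. In limma on log2(TPM + 1), which shifts the median of all genes to -0.12, 45 of 83 were above 0 and the median was 0.007. With Cbfb(het) 10 and 14 averaged as 1 tumor, 80 of 83 were above 0 and the median was 0.25. Summed TPM of the nuclear members averaged 20116.0 ± 3465.3 (SD) over the 14 Cbfb(het) tumors, against 19324.9 ± 893.2 (SD) over the 3 Cbfb(wt) tumors, a difference within the spread. Short transcripts made up much of the set: 45 of the 83 had an effective length of at most 500 bases, with a median of 0.31, beside 0.16 for all 1222 genes that short. The 23 members of 500 to 1000 bases had a median of 0.19, beside 0.16 for all such genes. The 15 members over 1000 bases had a median of 0.14, beside 0.005 for all such genes.

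**Figure D4:**
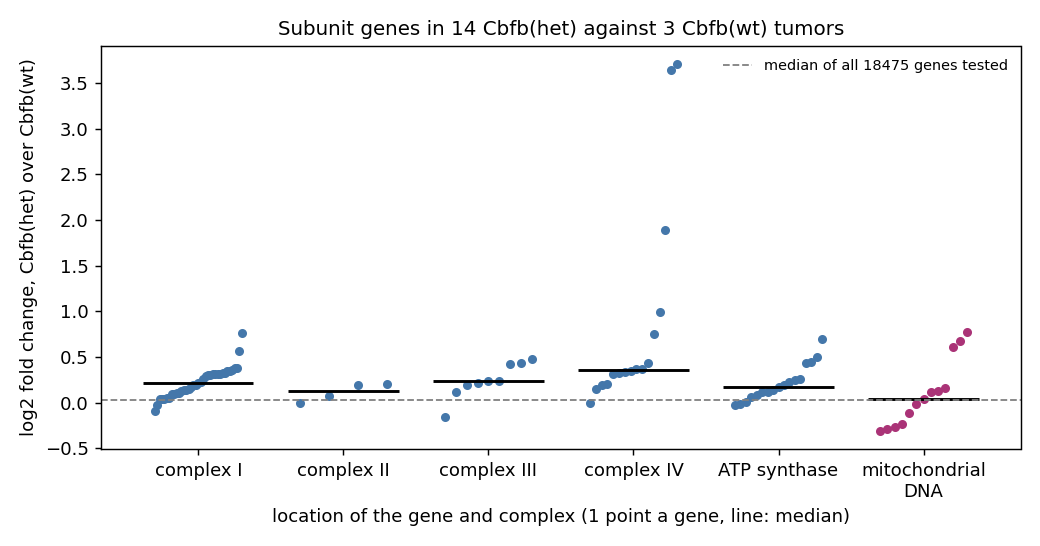
Log2 fold change, Cbfb(het) over Cbfb(wt) (vertical axis), of each subunit gene that passed the filter (points), by complex (horizontal axis), with the median of the complex as a line and that of all 18475 genes as a dashed line. Most nuclear genes lie between 0 and 0.5, and the highest points of complex IV are Cox8b (3.71), Cox6a2 (3.64) and Cox4i2 (1.89). Cox8b reached 10 counts in Cbfb(het) tumors alone.

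The members with the smallest p in each complex and direction did not pass (edgeR adjusted p = 0.999 for each). In complex I these were Ndufa3, an accessory subunit, at 0.56 ± 0.34 (log2 fold change ± SE), and Ndufv3, a subunit of the NADH-oxidizing arm, at -0.09 ± 0.22. Ndufa3 stood at 131.14 to 394.36 TPM in Cbfb(het) tumors (median 187) and at 147.85, 119.02 and 183.29 TPM in Cbfb(wt) tumors. In complex II Sdhd was at 0.19 ± 0.17, and no member was below 0. In complex III Uqcr10, a small subunit, was at 0.48 ± 0.27 and Cyc1 at -0.15 ± 0.29. In complex IV Cox4i2 was at 1.89 ± 0.97, and no member was below 0. In ATP synthase Atp5e was at 0.70 ± 0.31, with 338.69 to 883.21 TPM in Cbfb(het) tumors (median 505) and 424.01, 326.31 and 351.02 TPM in Cbfb(wt) tumors, and Atp5s was at -0.03 ± 0.30. The largest log2 fold changes of complex IV were those of Cox8b, at 3.71, and Cox6a2, at 3.64, and without Cbfb(het) 5 they were at 2.06 and 1.61. Both genes passed the filter wholly or mostly through Cbfb(het) tumors, as given above. Cox4i2 was at 1.567 to 1.981 without any 1 tumor and at 1.57 with Cbfb(het) 10 and 14 averaged as 1 tumor.

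For mitochondrial genes the sign was divided, with 7 of 13 above 0 and a median of 0.05. The smallest p were those of mt-Atp6, at 0.77 ± 0.34 (SE), and, on the lower side, mt-Nd2, at -0.24 ± 0.23 (edgeR adjusted p = 0.999 for both). The value of mt-Atp6 came from the counts assigned to the gene alone. With the copies added, mt-Atp6 was at 0.11 ± 0.26, mt-Co3 at 0.24 ± 0.27 in place of 0.67 ± 0.32, and mt-Nd3 at 0.02 ± 0.26 in place of 0.61 ± 0.46. mt-Nd4l moved the other way, to -0.44 ± 0.52 in place of -0.26 ± 0.45, and mt-Co1 and mt-Co2 stayed near, at 0.14 ± 0.27 and 0.18 ± 0.26.

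**Figure D5:**
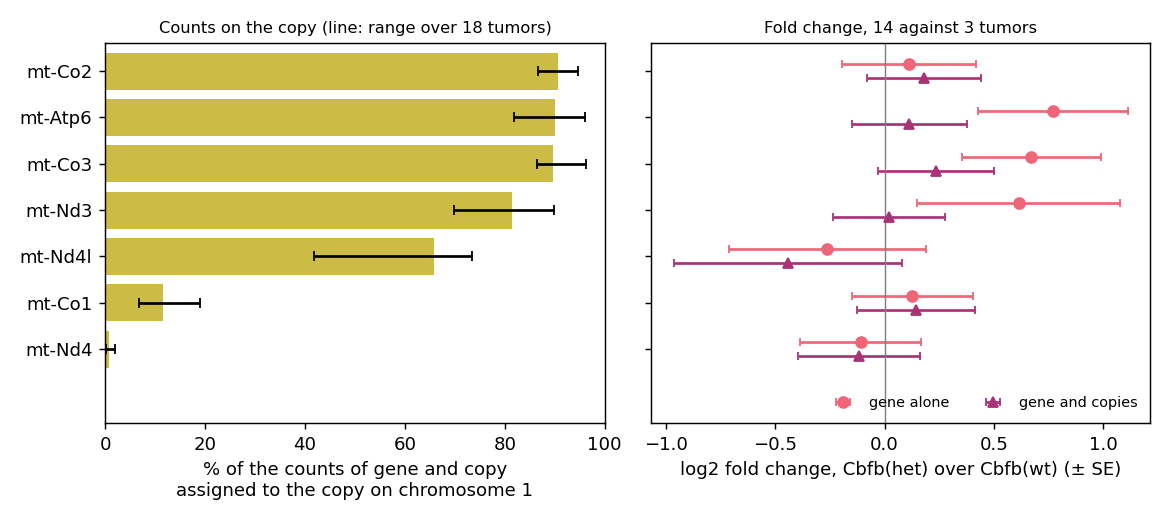
Left: percentage of the counts of a mitochondrial gene and its chromosome 1 copy that were assigned to the copy, over all tumors (bars; lines give the lowest and highest tumor). Right: log2 fold change, Cbfb(het) over Cbfb(wt), with its SE, for the gene alone (circles) and with copies added (triangles); mt-Atp6 moves to 0.11 with copies, against 0.77 alone.

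The balance between isoforms was compared as the log2 ratio of their TPM in the same tumor, in 7 pairs where the restricted form had at least 10 counts in at least 3 tumors. None passed the test (two-sided exact permutation test over 680 splits, adjusted p from 0.750 to 0.809, where the smallest possible unadjusted p is 0.00147). The log2 ratio of Cox4i2 to Cox4i1 averaged -6.73 ± 1.51 (SD) over the 14 Cbfb(het) tumors, against -7.61 ± 0.20 (SD) over the 3 Cbfb(wt) tumors, an exact p of 0.338. With Cbfb(het) 10 and 14 averaged as 1 tumor the difference was 0.64 in place of 0.88. The 3 Cbfb(wt) tumors lay between -7.83 and -7.46, within the range of the Cbfb(het) tumors, -8.35 to -3.60. The difference, Cbfb(het) minus Cbfb(wt), was 1.40 for Cox6a2 over Cox6a1, 1.84 for Cox8b over Cox8a, 0.29 for Cox7a1 over Cox7a2 and 0.31 for Cox6b2 over Cox6b1. In the Cbfb(wt) tumors Cox6a2 had 2, 12 and 0 counts and Cox8b 0, 0 and 5. Near 0 counts the ratio is set largely by the pseudocount of 0.1 TPM. Cox8b met the limit of 10 counts through Cbfb(het) tumors alone. Single Cbfb(wt) tumors moved the differences: Cox6a2 over Cox6a1 was at 0.55 without Cbfb(wt) 3 and 2.34 without Cbfb(wt) 2, and Cox8b over Cox8a at 1.17 without Cbfb(wt) 1 and 3.05 without Cbfb(wt) 3. Cox7a1 over Cox7a2 ranged from 0.13 without Cbfb(wt) 2 to 0.59 without Cbfb(wt) 3, and Cox6b2 over Cox6b1 from -0.005 without Cbfb(wt) 3 to 0.64 without Cbfb(wt) 2. For the c subunit genes the difference was 0.04 for Atp5g1 over Atp5g3 and -0.16 for Atp5g2 over Atp5g3, or -0.052 with the pseudogene counts added.

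Genes that build or feed the chain, taken from lists of their own, likewise had 0 members called in either direction. Of 17 assembly factors of complex I, 10 were above 0 (median 0.06), and Ndufaf3 had the smallest p, at 0.54 ± 0.36 (SE). Of 22 factors of complex IV, 18 were above 0 (median 0.10), and Lrpprc, which stabilizes mitochondrial RNA, was at -0.44 ± 0.26. The factors of complexes II and III and of ATP synthase numbered 4, 6 and 3, with Sdhaf1 at 0.54 ± 0.34, Uqcc3 at 0.48 ± 0.36 and Atpaf2 at 0.31 ± 0.23. Regulators of mitochondrial biogenesis were mostly on the other side, with 4 of 13 above 0 (median -0.07) and Pprc1, a coactivator of the PGC-1 family, at -0.27 ± 0.20. Citric acid cycle genes were evenly divided (7 of 14 above 0), with Idh3b at -0.12 ± 0.14. Of 4 electron carrier genes 3 were above 0, with Etfb, a carrier of electrons from fatty acid oxidation, at 0.55 ± 0.34, and of 12 hypoxia response genes 8, with Adm, adrenomedullin, at 1.35 ± 0.87. Among markers of other cells the median log2 fold change was 5.56 for skeletal muscle (15 of 15 above 0), although the median muscle sum of Cbfb(het) tumors, 28.8 TPM, lay within the 19.75 to 42.97 TPM of Cbfb(wt) tumors, and 4.92 for adipocytes (10 of 10, with 8 at an unadjusted p under 0.05). It was 1.48 for milk proteins (9 of 10, with Wap at 3.92 ± 3.34), 1.09 for brown fat (3 of 4), 0.95 for fibroblasts (6 of 8), 0.18 for epithelium (8 of 10), 0.09 for endothelium (5 of 6), 0.04 for pericytes (4 of 7) and -0.24 for leukocytes (3 of 7). Several muscle and adipocyte markers were near 0 in Cbfb(wt) 1, 2 and 3: Ckmt2 at 0, 0 and 0 TPM, Plin1 at 0, 0 and 0.25 TPM and Adipoq at 0, 0.04 and 0.84 TPM. Others were not, as Fabp4 at 23.76, 94.73 and 46.03 TPM. Markers near 0 there passed the filter wholly or mostly through Cbfb(het) tumors, which largely set their positive signs. The medians, numbers above 0 and p of these lists are thus no support for a group difference. The summed adipocyte markers were at 40.21 to 1383.64 TPM in Cbfb(het) tumors and at 31.44 to 101.27 TPM in Cbfb(wt) tumors. Their part in the values of the subunit genes was not tested.

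The Cbfb(homo) tumor, which has no replicate and entered no test, kept its subunit genes within the range of the other 17 tumors. Of 83 nuclear members, 0 lay above that range and 1 below it, beside 4.74% and 3.26% of all 20328 genes kept. The one below was Sdhd, at 6.412 log2 CPM, against at least 6.413 in the others. Of 13 mitochondrial genes, 0 lay outside. The median of nuclear members was -0.07 against the mean of the Cbfb(wt) tumors and -0.26 against that of the Cbfb(het) tumors, on the log2 CPM scale, and for mitochondrial genes -0.10 and -0.05. Complexes I and II were the lowest against Cbfb(het) tumors (-0.31 and -0.30) and complexes III and IV the nearest (-0.13 and -0.14). For all 20328 genes kept the median was 0.006 against Cbfb(wt) tumors and 0.01 against Cbfb(het) tumors.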

How the data were processed

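RNA of 18 tumors was measured by RNA-seq (TruSeq stranded mRNA kit, per the labels' protocols). The authors deposited RSEM expected counts, which share out reads that fit several genes, TPM and effective lengths per gene, per the file headers. The deposited FPKM values, scaled by the authors per length and depth, were not used. STAR 2.7.0f, RSEM 1.3.1 and mm10 are named in the submitters' processing notes. All gene IDs occur in GENCODE release 21 for mouse. Copies were sought with BLAST 2.17.0 among its transcripts (at least 95% identity, 100 bases and 80% of the copy). Expected counts were rounded, filtered with filterByExpr, TMM-scaled and tested with edgeR 4.0.16 (quasi-likelihood, robust, adjusted over all 18475 genes, threshold 0.05), with DESeq2 1.42.0 and limma 3.58.1 on log2(TPM + 1) as alternatives. The fit was tested on simulated data. Log2 CPM used TMM factors and a prior count of 2; isoform ratios used a pseudocount of 0.1 TPM. Named genes were all mitochondrial genes, all isoform pairs and, per complex, those with extreme mean, SD or p. Members and lists were chosen with earlier results of these data known.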

Additional observations from a re-analysis of the deposited data

How the results depend on the processing

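In all 28 alternatives 0 members were called. The count of all genes called was 1 in place of 0 with all 18 tumors in one fit and without a filter on low counts. The median log2 fold change of nuclear members was 0.16 to 0.30 (0.156 to 0.302) without 1 tumor and 0.007 to 0.253 otherwise, with 69 to 80 and 45 to 80 of 83 above 0; that of mitochondrial genes was -0.146 to 0.078 and -0.219 to 0.07. In limma on log2(TPM + 1) the median of complex II was -0.064 and Sdhd was at -0.015. With Cbfb(het) 10 and 14 averaged, Atp5s was at 0.004. Leaving out each tumor gave -0.173 to 0.093 for Ndufv3 and -0.195 to 0.233 for Atp5s. The same gave a difference in isoform ratio of -0.248 to 0.25 for Atp5g1 over Atp5g3, -0.464 to 0.25 for Atp5g2 over Atp5g3 and -0.005 to 0.636 for Cox6b2 over Cox6b1. The cause was not tested. The highest over the lowest tumor, as log2, was 1.117 for nuclear members in CPM in place of TPM, and 1.896 for mitochondrial genes in TPM in place of shares of counts. Adding copies and the fragment length covariate (65 of 83 above 0, median 0.147) were chosen after seeing the data. No paired analysis was possible because the tumor numbers follow accession order and the labels pair no tumors. With 3 Cbfb(wt) tumors and a common biological coefficient of variation of 0.691, small differences were not detectable.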
